A study of Homo sapiens with 21 samples.

Results

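The response of the messenger RNA of HK-2 cells to 48 h of cyclosporine A was followed across gene families, from receptors and secreted proteins at the cell surface to transport, RNA and chromatin genes inside the cell. HK-2 cells were immortalised from the proximal tubule of a human kidney. The genes described were all those with a mean of at least 10 reads over the 8 mRNA libraries of the count table, 12910 of 23368 features. At that limit 16 genes had a mean of exactly 10 and were kept, and the next 25 had a mean of 9.875 and were left out. The full series has 21 samples, which also cover miRNA and Argonaute-bound RNA. Only the 8 mRNA libraries were used here, 4 from cells given 5 µg/mL cyclosporine A and 4 from cells given the vehicle, 0.1% ethanol, both for 48 h. Both groups were grown in Keratinocyte-SFM medium with epidermal growth factor and bovine pituitary extract, and polyadenylated RNA was sequenced. All libraries come from 1 cell line and 1 dose, and nothing in the labels tells whether the libraries of a group stem from separate cultures. The p-values therefore reflect how much these libraries vary, and that variation may be technical.

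Cyclosporine A binds cyclophilins inside the cell, and the complex blocks calcineurin, a phosphatase switched on by calcium that activates NFAT transcription factors. The drug prevents rejection of transplants and is known to harm the kidney, where the proximal tubule takes up filtered solutes and secretes drugs. Cells of this tubule signal to their neighbours through growth factors, ephrins, prostaglandins and proteases, and they carry a dense load of vesicle traffic.

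Total reads per library ranged from 3965431 to 7041604. Levels are given as CPM, reads scaled to the size of the library after the trimmed mean of M values (TMM) correction. Because CPM is not divided by gene length, levels are compared between groups for 1 gene and not between genes. The first principal component of the log2 CPM held 80.1% of the variance and separated the groups, and the second held 4.35%. At an equal depth of 3965431 reads, 15973 to 16010 features had a read in the vehicle libraries and 15603 to 15636 in the cyclosporine A libraries. Kidney epithelial markers were present, among them the renal transcription factor gene *PAX8* (832 ± 18.2 to 954 ± 32.0 CPM; mean ± SD, n = 4) and the keratin gene *KRT19* (431 ± 21.8 to 536 ± 41.7 CPM). Of 22 listed markers of kidney epithelium 13 reached the minimum, and those of mature proximal tubule uptake such as *LRP2*, *CUBN* and *AQP1* did not. In the test described below, 5 of the 13 were higher with cyclosporine A and 6 were lower, 2 of the latter past 2-fold. Summed over the list, the level was 3278 to 3403 CPM per vehicle library and 3129 to 3354 CPM per cyclosporine A library, and *SLC22A6* and *SLC22A8* had no read. No endothelial or immune marker out of 11 listed reached the minimum, with sums of at most 0.677 CPM in any library. *PECAM1* and the immune markers *PTPRC*, *CD3E*, *LYZ* and *CD2* had no read at all. Of 7 fibroblast and muscle markers 3 were measured, and the level summed over all 7 was 360.4 to 404 CPM with vehicle and 109 to 127 CPM with cyclosporine A. In bulk RNA, fewer cells of a type and less RNA per cell cannot be told apart.

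Of the 12910 genes, 8605 (66.7%) were called in edgeR's quasi-likelihood test at an adjusted p of 0.05 (Benjamini-Hochberg), 4297 higher (33.3%) and 4308 lower (33.4%) with cyclosporine A. Most of these changes were small: the median size of a change over all genes was 1.30-fold, and from the 5th to the 95th percentile the log2 fold change ran from -1.23 to 0.95. A stricter test, which asks whether a change exceeds 2-fold, was passed by 290 higher genes (2.25%) and 436 lower genes (3.38%), together 5.62% of the genes. The 2 groups of libraries did not overlap in CPM for 7444 genes (57.7%). These shares are the background against which the count of each gene family is read. "Rose" and "fell" below refer to genes that passed the adjusted p of 0.05, and fold changes are log2 ratios of treated over vehicle, each ± its standard error (SE) from the fit to 4 libraries per group.

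**Figure D1:**
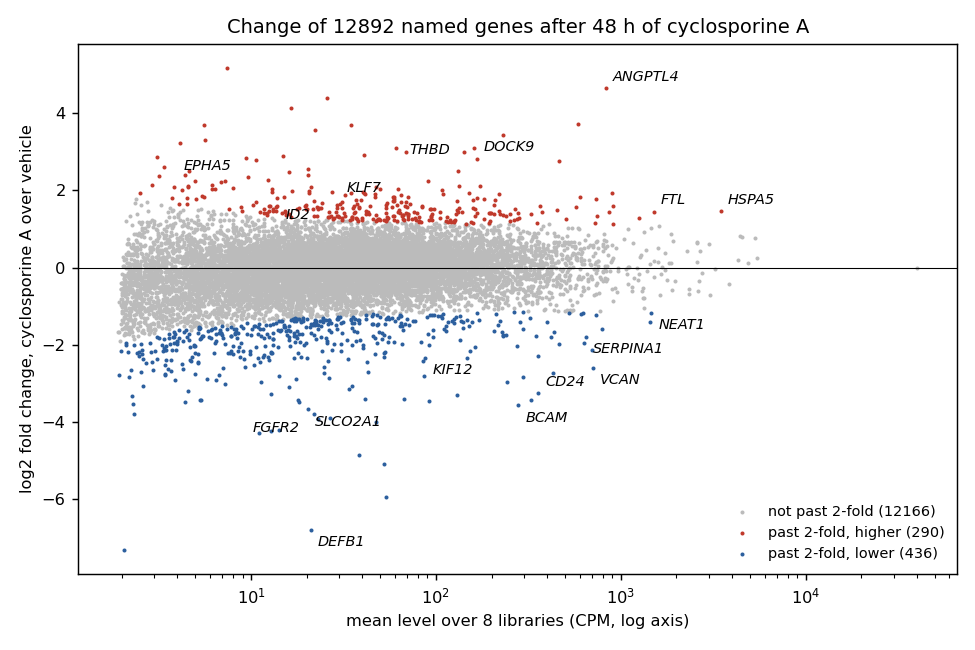
Log2 fold change (vertical axis) of 12892 genes with a gene symbol against the mean level over 8 libraries in CPM (horizontal log axis); red and blue points are the 290 higher and 436 lower genes past 2-fold. Falls past 2-fold outnumber rises, and the deepest falls lie further from 0 than the rises do.

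The direction of change shifted with read depth per gene. When genes were cut into 4 equal classes by level, the class with the fewest reads (1.92 to 11.9 CPM) had 495 genes higher and 1190 lower, with a median log2 fold change of -0.24. In the class with the most reads (70.9 CPM and over), 1482 were higher and 1065 lower, with a median of 0.09. Over all genes the median was -0.0038. The count of a family whose median level is low is therefore also given for its members above the median level of all genes (over 30.2 CPM). In that upper part of the whole table, 2824 of 6455 genes rose and 2022 fell. For some families of higher level the same count is given. Whether the depth of reads has a part in the lean of the lowest class was not tested. In CPM, the sum of all rises was 173947 and the sum of all falls 136389, with 321 genes making up 50% of the rise and 283 genes 50% of the fall. The TMM factors were 1.004 to 1.035 for vehicle and 0.974 to 0.988 for cyclosporine A. CPM therefore add up to a larger total in the treated libraries, and the gap between the sums is set by this scaling. It is not a measure of more RNA.

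**Figure D2:**
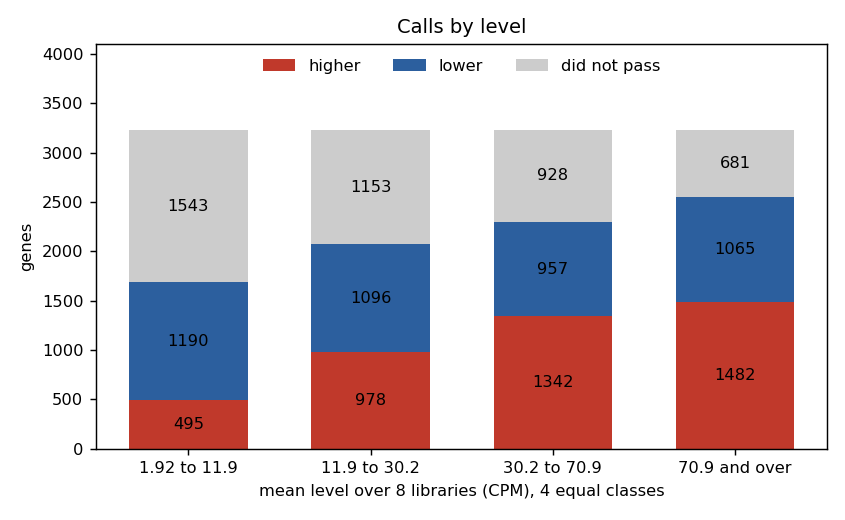
Number of genes that were higher (red), lower (blue) or did not pass (grey) in edgeR at an adjusted p of 0.05, in 4 equal classes by mean CPM over 8 libraries. From the class with the fewest reads to that with the most, higher calls go from 495 to 1482 and lower calls from 1190 to 1065.

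In its group, cyclosporine A replicate 3 had the lowest level for 139 of the 290 genes that rose past 2-fold, and for 17 of the 30 largest rises. Among the 436 genes that fell past 2-fold the highest library was spread evenly, from 102 to 114 genes per cyclosporine A library. Without replicate 3 of cyclosporine A, 289 genes rose and 434 fell past 2-fold.

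The 30 largest rises, among called genes with a mean of at least 50 reads and no overlap between groups, included genes of many functions. Lack of overlap in these genes, and in the 30 largest falls below, was thus fixed by the choice and is not a result. *THBD* encodes thrombomodulin, the receptor that turns thrombin toward activating the anticoagulant protein C. Its levels in replicates 1 to 4 were 35.7, 33.6, 29.6 and 26.6 CPM with vehicle and 279, 258, 244 and 226 CPM with cyclosporine A. All 4 treated libraries were far above the controls, with a log2 fold change of 2.99 ± 0.08 (edgeR adjusted p = 5.90e-39). *DOCK9*, an exchange factor that activates the GTPase CDC42, had 44.4, 42.1, 32.8 and 43.8 CPM with vehicle and 289.7, 297, 282 and 297 CPM with cyclosporine A. Its treated libraries lay within a narrow band (log2 fold change 2.83 ± 0.07). *DLC1*, which switches off RHOA, rose by 2.01 ± 0.07 on the log2 scale, from 42.7 ± 3.68 to 173 ± 8.06 CPM, so an activator of 1 actin-shaping GTPase and an inhibitor of another were both among the 30. *PAPPA2*, a protease that frees insulin-like growth factors by cutting their binding proteins, had 10.8, 9.38, 8.04 and 9.71 CPM with vehicle and 75.7, 75.5, 76.9 and 61.6 CPM with cyclosporine A. The treated libraries were 61.6 CPM or more, with replicate 4 below the other 3.

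Further rises in this set reached other functions. *TIE1*, an endothelial receptor kinase gene, rose by 2.90 ± 0.15 from 3.52 ± 0.376 to 26.1 ± 1.90 CPM. The endothelial markers named above were under the minimum in the same libraries. *TRPV3*, a heat-gated cation channel gene, changed by 2.10 ± 0.12, and *GUCY1A2*, a subunit of the nitric oxide receptor guanylyl cyclase, by 2.04 ± 0.17. *PIM1*, a survival kinase, went from 64.7 ± 4.04 to 279.8 ± 51.5 CPM and was lowest in cyclosporine A replicate 3 (207 CPM). *GEM*, a small GTPase that restrains calcium channels, went from 6.52 ± 1.13 to 34.2 ± 3.77 CPM. *NEURL*, a ubiquitin ligase of Notch ligands, changed by 2.27 ± 0.17 and *PLD6*, a mitochondrial lipid enzyme, by 2.56 ± 0.16. *MAFF*, a small partner of stress transcription factors, rose by 2.03 ± 0.09. The reads of *MAP1LC3B2* (2.00 ± 0.14) may be shared with its near copy *MAP1LC3B*, so its own change is uncertain.

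Falls reached deeper than rises, and the 30 largest included receptors, adhesion proteins and secreted proteins, a reading of the names that was not tested. *FGFR2*, a receptor for fibroblast growth factors that guides growth of kidney epithelium, had 46.9, 46.1, 34.7 and 35.0 CPM with vehicle and 2.47, 3.67, 3.68 and 2.05 CPM with cyclosporine A. No treated library came near a control, and the log2 fold change was -3.79 ± 0.16 (edgeR adjusted p = 5.13e-28). *SLCO2A1*, the carrier that takes prostaglandins into the cell, had 38.9, 36.4, 37.7 and 37.3 CPM with vehicle and 2.88, 4.15, 1.61 and 3.07 CPM with cyclosporine A. The vehicle values were nearly equal and the treated values were scattered at a low level (log2 fold change -3.68 ± 0.16). *BCAM*, a receptor for the basement membrane protein laminin, went from 513 ± 35.4 to 43.1 ± 2.83 CPM, a change of -3.57 ± 0.07. *CD24*, a surface glycoprotein of kidney progenitor cells, had 669.5, 634, 645 and 627 CPM with vehicle and 68.5, 60.6, 67.7 and 73.4 CPM with cyclosporine A. The groups were separated by a wide gap, with a log2 fold change of -3.25 ± 0.07.

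Other genes of this set had further roles. *CYS1* encodes a protein of the primary cilium and went from 60.8 ± 1.77 to 6.82 ± 0.843 CPM, and *TNS1*, a link from integrins to actin, from 28.7 ± 2.62 to 3.39 ± 0.901 CPM. *DHRS3*, which reduces retinal, fell from 167 ± 5.77 to 15.3 ± 1.79 CPM. *RSPO3*, a secreted amplifier of Wnt signals, went from 30.8 ± 2.84 to 4.14 ± 0.346 CPM. *UNC5CL* (log2 fold change -3.06 ± 0.12), *SEMA5B*, a guidance protein (-3.28 ± 0.18), and *ADAMTS15*, a protease that cuts proteoglycans (-2.96 ± 0.20), were lower. *IGFBP3*, which binds insulin-like growth factors, went from 236 ± 9.62 to 23.8 ± 1.197 CPM, and *PAPPA2* above encodes a protease of such binding proteins. *TNFSF10*, the death ligand TRAIL, went from 596 ± 21.2 to 54.6 ± 4.94 CPM and *LTB*, a lymphotoxin, from 32.9 ± 1.99 to 3.001 ± 0.614 CPM. *SLC2A2*, a glucose carrier of the proximal tubule, fell from 75.2 ± 4.52 to 7.05 ± 1.64 CPM, and the long non-coding host RNA *MIR205HG* from 123 ± 8.75 to 11.4 ± 1.88 CPM.

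**Figure D3:**
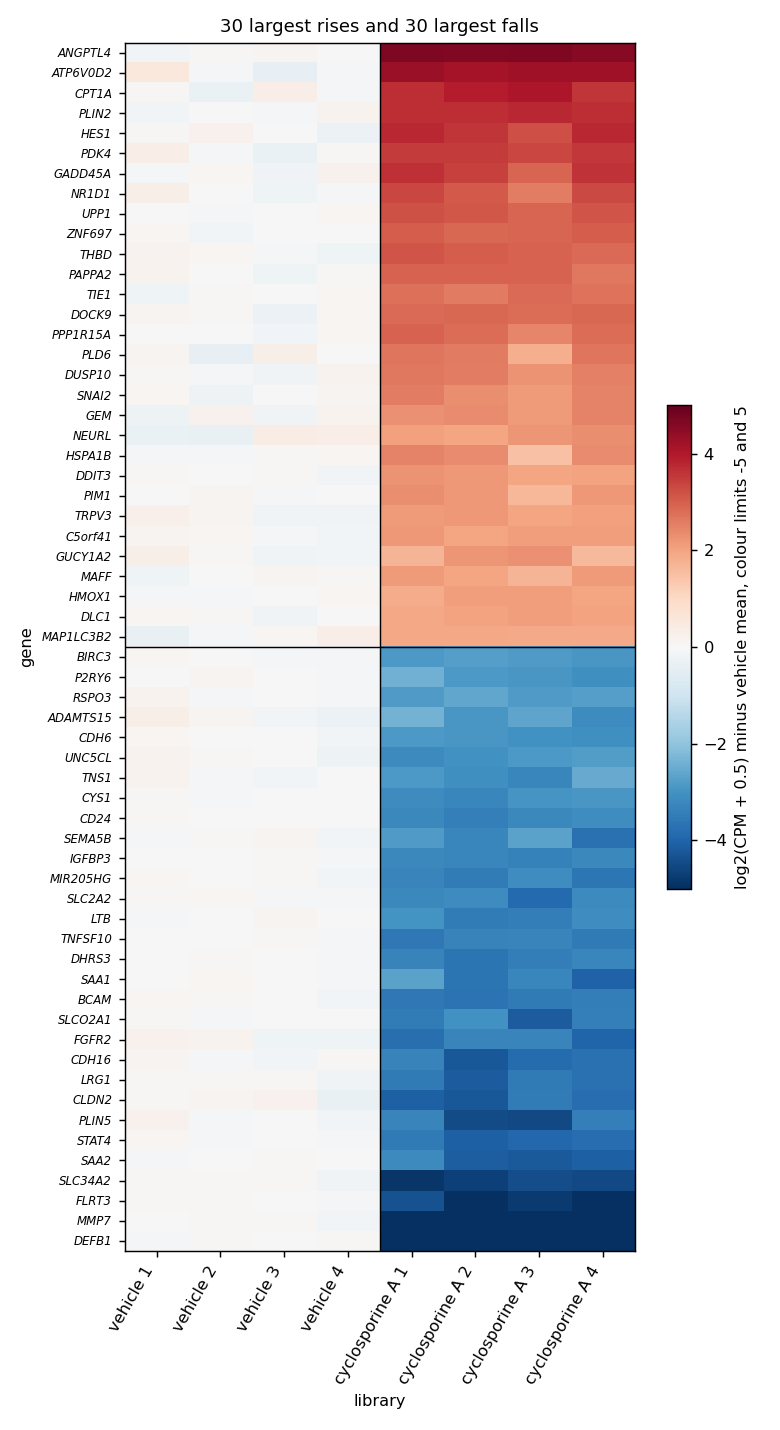
The 30 largest rises and the 30 largest falls (rows) in each of the 8 libraries (columns), coloured by log2(CPM + 0.5) minus the mean of the vehicle libraries; red is higher and blue lower, and colours stop at -5 and 5. The genes were chosen for lack of overlap between the groups. Every vehicle column is near white, every cyclosporine A column is coloured, and cyclosporine A replicate 3 is paler in 17 of the 30 rises.

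Changes counted in CPM weigh genes with many reads most, and of the 10 largest rises and 10 largest falls on that scale *ANGPTL4* alone was also among the 30 largest rises or falls in fold. *FLNA* and *MYH9*, an actin crosslinker and a non-muscle myosin, went from 3179 ± 37.2 to 5648 ± 236 CPM and from 2001 ± 91.5 to 3152 ± 133 CPM. *IGFN1* went from 3922 ± 344 to 6731 ± 240.3 CPM, the integrin gene *ITGA3* from 3299 ± 169.7 to 5742 ± 159.8 CPM and the elongation factor gene *EEF2* from 2382 ± 174 to 3630.1 ± 307 CPM. *HIF1A*, the oxygen-regulated transcription factor, rose from 1027 ± 78.4 to 2175 ± 90.0 CPM. On the other side, *LAMA5*, a laminin chain of the basement membrane, fell from 2099 ± 67.3 to 796 ± 56.5 CPM, and *SPP1*, the secreted protein osteopontin, from 3779 ± 155 to 2321 ± 187 CPM. *LOXL2*, which crosslinks matrix, *C3*, the central complement protein, and *APP*, the amyloid precursor, changed by -0.62, -0.69 and -0.54 on the log2 scale. *FN1*, the fibronectin gene and the gene with the most reads, had 43702, 40594, 39466 and 38131 CPM with vehicle and 40869, 41080.2, 41415 and 36975 CPM with cyclosporine A. Its groups overlapped, and its log2 fold change of -0.01 ± 0.07 did not pass (edgeR adjusted p = 0.862).

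A single gene past the minimum had reads in 1 group alone. *LOC100422737* had 89 reads over the vehicle libraries and 0 over the cyclosporine A libraries. Set against a floor of 3 reads over the treated group, which covers counting error only, it was at least 23.6-fold lower. Intervals and floors treat reads as independent molecules, which PCR copies are not.

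The families that follow come from 40 lists of genes that share a function, with 1360 of 1682 listed genes above the minimum, kidney and other cell type markers included. Members named from the lists were chosen by their p or as examples with their values in view. Where the groups do not overlap in such a gene, this largely follows from the choice. It describes the gene and is not a separate result. Receptors and ligands are taken first. Wnt ligands signal through Frizzled receptors and, with the coreceptors LRP5 and LRP6, stabilise beta-catenin. Of 12 Wnt receptor genes tested 8 fell and 2 rose, against 33.4% lower and 33.3% higher over all genes. *FZD5* had 135, 135, 123 and 129 CPM with vehicle and 64.8, 66.7, 73.2 and 68.0 CPM with cyclosporine A. *FZD2* had 90.3, 81.6, 83.6 and 80.8 CPM with vehicle and 42.0, 44.96, 42.3 and 45.8 CPM with cyclosporine A. For both receptors every treated library was below every control, with log2 fold changes of -0.94 ± 0.07 and -0.95 ± 0.08. *FZD1*, *FZD4*, *FZD6* and *FZD7* changed by -1.02, -0.67, -0.64 and -0.65, and *LGR4*, a receptor for the R-spondin that *RSPO3* encodes, by 0.31. Beta-catenin itself, *CTNNB1*, had a log2 fold change of -0.01 ± 0.05 and did not pass, whereas *AXIN2*, a feedback inhibitor that the pathway switches on, went from 4.57 ± 0.589 to 0.843 ± 0.629 CPM. The secreted inhibitor *DKK3* went from 282 ± 16.3 to 445 ± 9.32 CPM and rose.

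Ephrins and Eph receptors carry signals between touching cells. Of the 13 members tested 9 fell and 2 rose, and the median log2 fold change of the list was -0.48, against -0.0038 over all genes. *EPHA4*, a receptor for both classes of ephrin, had 24.3, 19.3, 22.6 and 18.3 CPM with vehicle and 5.76, 6.84, 4.83 and 3.58 CPM with cyclosporine A. *EPHA5* moved the other way, with 3.97, 2.39, 2.96 and 3.16 CPM with vehicle and 16.9, 17.1, 16.8 and 14.1 CPM with cyclosporine A. Both receptors were named for their small p, so the lack of overlap between their groups is not a result. Their log2 fold changes were -2.01 ± 0.16 and 2.34 ± 0.18. The ligand *EFNA5* fell from 108 ± 5.81 to 56.5 ± 5.10 CPM, and *EFNA4*, *EFNB2* and *EFNA3* changed by -1.08, -0.48 and -0.49. *EPHA2*, with the most reads of the receptors, changed by only -0.16 ± 0.06.

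Semaphorins are guidance ligands read by plexins and neuropilins. Of 15 semaphorin genes on the list 7 fell and 5 rose. *SEMA5B*, given above, is not on the list, and with it 8 of 16 semaphorin symbols fell. The class with a membrane anchor held *SEMA4B*, which had 483, 483, 454 and 419 CPM with vehicle and 191, 194, 186 and 176 CPM with cyclosporine A, a change of -1.30 ± 0.06 with no overlap. The secreted members *SEMA3C* (1.08 ± 0.07), *SEMA3F* (0.79 ± 0.06) and *SEMA3A* (0.66 ± 0.07) rose, and the secreted *SEMA3B* fell (-0.63 ± 0.06). Of 9 receptors 5 fell and 1 rose. *PLXNB1*, the receptor of SEMA4D, went from 151 ± 9.47 to 66.4 ± 4.62 CPM and *NRP1*, shared with vascular growth factor, from 408 ± 12.7 to 218 ± 18.2 CPM.

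Bone morphogenetic proteins and activins act through paired kinase receptors, and their targets include the ID proteins, which block differentiation factors. Of 9 receptor genes, with a median of 14.4 CPM, 7 fell and 1 rose, and in the 4 above 30.2 CPM, 2 fell and 1 rose. Over the whole list 16 of 27 genes fell and 8 rose, and in the 10 above 30.2 CPM 4 fell and 4 rose. *ACVRL1* (-1.11), *ENG* (-0.93) and *BMPR1A* (-0.54) were among the receptors that fell, while *ACVR1* changed by 0.67. The 2 ID genes measured moved in opposite directions. *ID1* had 30.2, 29.8, 37.7 and 36.8 CPM with vehicle and 6.79, 7.33, 5.52 and 6.39 CPM with cyclosporine A. *ID2* had 9.22, 10.5, 9.52 and 11.7 CPM with vehicle and 34.4, 36.7, 28.5 and 35.6 CPM with cyclosporine A. The groups did not overlap in either gene, and the log2 fold changes were -2.35 ± 0.14 for *ID1* and 1.73 ± 0.12 for *ID2*. The inhibitory SMAD gene *SMAD6* fell from 6.13 ± 0.802 to 1.58 ± 0.349 CPM, and among extracellular antagonists *NOG* (0.89) and *GREM1* (0.16) rose while *TWSG1* (-0.85) and *FSTL3* (-0.68) fell. The activin subunit gene *INHBE* went from 81.7 ± 8.005 to 161 ± 12.5 CPM, and *INHBA* changed by 1.02 ± 0.18.

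Growth factor receptors fell alongside *FGFR2*. Of 6 receptors for fibroblast, vascular and platelet-derived growth factors 5 fell. *FGFR4* changed by -0.77 ± 0.07, *FGFR3* by -0.52 ± 0.09 and *FGFR1*, with the most reads, by -0.40 ± 0.06. Of 9 ligands 4 rose and 2 fell. *PDGFB* had 179, 174, 177 and 147 CPM with vehicle and 54.3, 56.7, 69.7 and 54.0 CPM with cyclosporine A. Its treated libraries were all below the lowest control, which was replicate 4 (log2 fold change -1.53 ± 0.07). *PDGFC* went from 171 ± 9.37 to 103 ± 5.29 CPM, while the vascular growth factor genes *VEGFA* (0.46 ± 0.06), *VEGFB* (0.45 ± 0.09) and *PGF* (0.65 ± 0.20) rose.

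G protein-coupled receptors for small ligands mostly had few reads, with a median of 13.6 CPM for the list. Of 30 tested 17 fell and 4 rose, and in the 8 above 30.2 CPM, 4 fell and 2 rose. *P2RY6*, a receptor for the nucleotide UDP, had 45.5, 51.1, 46.1 and 42.7 CPM with vehicle and 8.23, 5.86, 5.75 and 5.12 CPM with cyclosporine A. Its 4 treated values were well under the controls, with a log2 fold change of -2.87 ± 0.13. *PTGER2*, a prostaglandin E2 receptor, went from 116 ± 5.80 to 52.8 ± 1.63 CPM. The adenosine receptor genes were divided, with *ADORA1* going from 35.3 ± 2.94 to 12.3 ± 1.52 CPM, *ADORA2A* from 12.3 ± 0.920 to 6.95 ± 1.41 CPM and *ADORA2B* from 8.91 ± 0.805 to 18.5 ± 1.97 CPM. *ADORA1* inhibits and *ADORA2B* stimulates adenylyl cyclase. Receptors for the lipids sphingosine 1-phosphate and lysophosphatidic acid fell in *S1PR1* (-1.99), *S1PR5* (-1.44), *LPAR1* (-1.04) and *LPAR2* (-0.67).

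Downstream of these receptors, cyclic AMP is made by adenylyl cyclases and acts through protein kinase A, which anchoring proteins hold in place. Of 12 genes tested for the kinase, its inhibitors and its anchors 8 rose and 1 fell, and in the 4 above 30.2 CPM, 3 rose. *AKAP12* had 290.3, 283, 270.4 and 266 CPM with vehicle and 517, 505, 554 and 490.1 CPM with cyclosporine A. All treated libraries exceeded the controls (log2 fold change 0.90 ± 0.06). The regulatory subunit genes *PRKAR1A*, *PRKAR2A* and *PRKAR1B* changed by 0.59, 0.69 and 0.58, and the catalytic subunit gene *PRKACA* had -0.17 and did not pass. Adenylyl cyclase genes *ADCY6* and *ADCY3* fell, with log2 fold changes of -0.64 ± 0.06 and -0.64 ± 0.06. The kinase inhibitor genes *PKIA* and *PKIB*, both with few reads, went from 5.32 ± 0.724 to 2.27 ± 0.640 CPM and from 1.99 ± 0.239 to 7.02 ± 0.857 CPM. RGS proteins, which shut off G proteins, had 3 higher and 3 lower of 10, and the 3 above 30.2 CPM all fell.

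Tetraspanins organise receptors and integrins into patches of the membrane. Their list also holds *TM4SF* genes, which belong to the separate L6 family of membrane proteins. It was the list with the lowest median, -0.69. Of 16 *TSPAN* symbols alone, 13 fell and 0 rose. Of the 25 genes of the list tested, 19 fell and 1 rose. Of the 17 above 30.2 CPM, 14 fell and 3 did not pass, and the fall was therefore not limited to genes with few reads. *TM4SF18* had 185, 172, 160.2 and 165 CPM with vehicle and 50.2, 61.6, 59.4 and 48.3 CPM with cyclosporine A. *CD9* had 50.8, 54.8, 50.6 and 46.3 CPM with vehicle and 23.5, 19.1, 28.8 and 21.0 CPM with cyclosporine A. *CD81* had 384, 384, 408 and 355 CPM with vehicle and 238, 227, 231 and 234 CPM with cyclosporine A. In all 3 genes the treated libraries were below every control, with log2 fold changes of -1.64 ± 0.07, -1.13 ± 0.10 and -0.72 ± 0.06. *TM4SF1* (-0.90), *CD151*, a partner of laminin-binding integrins (-0.64), and *TSPAN4* (-0.69) fell as well. *CD63*, a tetraspanin of lysosomes and exosomes with the most reads of the list, had 0.09 ± 0.06 and did not pass, nor did *CD82* (0.12 ± 0.09). The single rise of the list was *TM4SF19*, of the L6 family, from 1.47 ± 0.403 to 6.21 ± 1.37 CPM.

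Serpins and related inhibitors restrain the proteases of clotting, fibrinolysis and matrix. Of 13 inhibitors tested 11 fell and the other 2 did not pass, with a median log2 fold change of the whole list of -0.43. *SERPINA1*, which encodes alpha-1 antitrypsin, had 1034, 1033, 1015 and 942 CPM with vehicle and 306, 292, 282 and 271 CPM with cyclosporine A. The treated libraries were tightly grouped and far lower, with a log2 fold change of -1.81 ± 0.06 (edgeR adjusted p = 6.73e-34). *SERPINH1*, a chaperone of collagen rather than a protease inhibitor, went from 728 ± 44.8 to 339.6 ± 10.8 CPM. *SERPINF2*, the inhibitor of plasmin, went from 30.9 ± 3.35 to 6.38 ± 1.67 CPM, and *TFPI*, the inhibitor of the tissue factor pathway, from 201 ± 7.02 to 93.8 ± 4.83 CPM. The receptor of the activator urokinase, *PLAUR*, had 159.5, 156, 164 and 144 CPM with vehicle and 349.8, 348, 346 and 328 CPM with cyclosporine A. It rose without overlap (1.14 ± 0.06), and urokinase itself, *PLAU*, rose by 0.32 ± 0.06, whereas the activator *PLAT* had 0.01 ± 0.06 and did not pass. In the protein C pathway *THBD* rose, as given above, while its partner receptor *PROCR* (-0.46 ± 0.06) and the cofactor protein S, *PROS1* (-0.87 ± 0.07), fell.

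Many ADAM and ADAMTS genes encode surface and secreted metalloproteases that shed receptors or cut matrix. Of 20 tested 12 fell and 7 rose, and in the 10 above 30.2 CPM, 4 fell and 5 rose. *ADAMTSL4* and *ADAM22*, whose products lack protease activity, went from 70.4 ± 6.24 to 20.7 ± 1.36 CPM and from 18.96 ± 3.62 to 4.77 ± 2.23 CPM. *ADAMTS7*, which cuts cartilage matrix protein, went from 17.4 ± 1.84 to 5.90 ± 2.40 CPM. *ADAMTS14*, which trims procollagen, had 24.7, 18.6, 17.8 and 16.5 CPM with vehicle and 58.6, 55.0, 59.1 and 58.1 CPM with cyclosporine A. It rose in all treated libraries (1.54 ± 0.10), as did the sheddases *ADAM9* (0.66 ± 0.08), *ADAM17* (0.32 ± 0.06) and *ADAM8* (0.72 ± 0.11), while *ADAM10* had -0.05 ± 0.06 and did not pass.

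Proteoglycans are core proteins that carry long sulfated sugar chains. Of 12 core protein genes 8 fell and 1 rose. *VCAN*, versican, had 1377, 1198, 1134 and 1149.6 CPM with vehicle and 208, 202, 214 and 180.3 CPM with cyclosporine A. *HSPG2*, perlecan of the basement membrane, had 1944, 1769, 1797 and 1717 CPM with vehicle and 872, 828, 862 and 906 CPM with cyclosporine A. Both fell in every treated library, with log2 fold changes of -2.60 ± 0.07 and -1.06 ± 0.06. The surface syndecans *SDC2* (-1.36 ± 0.06), *SDC3* (-0.68 ± 0.06) and *SDC4* (-0.34 ± 0.06) and the matrix proteoglycan *AGRN* (-0.42 ± 0.06) also fell, and *BGN* rose (0.50 ± 0.15). Among 30 enzymes of chain synthesis 12 fell and 7 rose. *EXT1* and *EXT2*, which polymerise heparan sulfate, changed by -0.99 and -0.46, and the sulfotransferases *HS6ST1* by -1.94 and *HS3ST3A1* by 1.06.

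Enzymes that start mucin-type sugars on serine and threonine fell in 9 of 14 cases and rose in 3. *GALNT14* went from 363 ± 17.2 to 164 ± 4.99 CPM, *GALNT2* from 592 ± 41.9 to 304 ± 16.3 CPM and *GCNT1*, which branches the chains, from 51.3 ± 4.31 to 18.9 ± 3.22 CPM. Fucosyl- and sialyltransferases were divided, with 6 of 14 lower and 5 higher. *FUT4*, which completes Lewis x, had 83.8, 83.1, 74.9 and 68.2 CPM with vehicle and 19.8, 28.3, 23.2 and 25.6 CPM with cyclosporine A. The groups did not overlap (log2 fold change -1.70 ± 0.09). *FUT8*, which adds core fucose, and *ST6GAL1*, which adds terminal sialic acid, changed by -0.999 ± 0.07 and -0.995 ± 0.07, and *ST6GALNAC4* by 1.08 ± 0.08.

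Channels of the surface moved both ways. Of 23 potassium channel genes 11 rose and 7 fell, and in the 10 above 30.2 CPM, 6 rose and 3 fell. *KCNJ16*, an inward rectifier of the tubule's basolateral side, had 144, 132, 137 and 114 CPM with vehicle and 30.04, 36.4, 36.6 and 36.8 CPM with cyclosporine A. *KCNH1*, a voltage-gated channel, had 31.5, 25.4, 25.6 and 26.2 CPM with vehicle and 97.3, 87.5, 86.8 and 90.0 CPM with cyclosporine A. *KCNJ16* fell (-1.93 ± 0.08) and *KCNH1* rose (1.72 ± 0.08), each without overlap. Of 11 TRP and PIEZO channel genes on the list, which does not hold the risen *TRPV3* given above, 7 fell and 2 rose. Those that fell included *PKD2*, polycystin of the cilium (-0.63 ± 0.08), and *MCOLN3* (-0.69 ± 0.10). Of 7 connexin and pannexin genes 5 fell and 2 rose, and of the 2 above 30.2 CPM 1 moved each way. *PANX2* went from 2.46 ± 0.802 to 12.0 ± 2.86 CPM, and the main epithelial connexin *GJA1* changed by 0.26 ± 0.06. Of 16 chloride channel genes and relatives 4 rose and 6 fell, and the scramblase family member *ANO9* went from 112 ± 5.27 to 50.8 ± 7.12 CPM.

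Families that act inside the cell are taken next. COPII coats carry new proteins from the endoplasmic reticulum to the Golgi, and COPI coats carry material back. Of 61 coat and tether genes tested 43 rose and 8 fell, and the list's median of 0.44 was the highest of the 40. *SEC24D*, a cargo-binding subunit of COPII, had 67.6, 68.9, 67.9 and 78.6 CPM with vehicle and 158, 161, 163 and 161 CPM with cyclosporine A. *SEC23B*, its partner, had 51.6, 53.9, 50.2 and 61.9 CPM with vehicle and 108, 110.4, 112 and 110.0 CPM with cyclosporine A. Every treated library was above the controls in both, with log2 fold changes of 1.19 ± 0.07 and 1.02 ± 0.07, and *SEC24A* rose by 1.10 ± 0.08. In the COPI coat *ARCN1* changed by 0.76, *COPG1* by 0.67, *COPB1* by 0.63, *COPA* by 0.52 and *COPB2* by 0.44, and 12 of 17 genes rose. *CREB3L2*, a membrane-bound factor that switches on coat genes, went from 88.1 ± 8.63 to 171 ± 6.65 CPM. The receptors that return resident proteins did not follow: *KDELR1* (-0.61 ± 0.06) and *KDELR3* (-0.94 ± 0.08) fell and *KDELR2* had 0.01 ± 0.06, which did not pass.

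**Figure D4:**
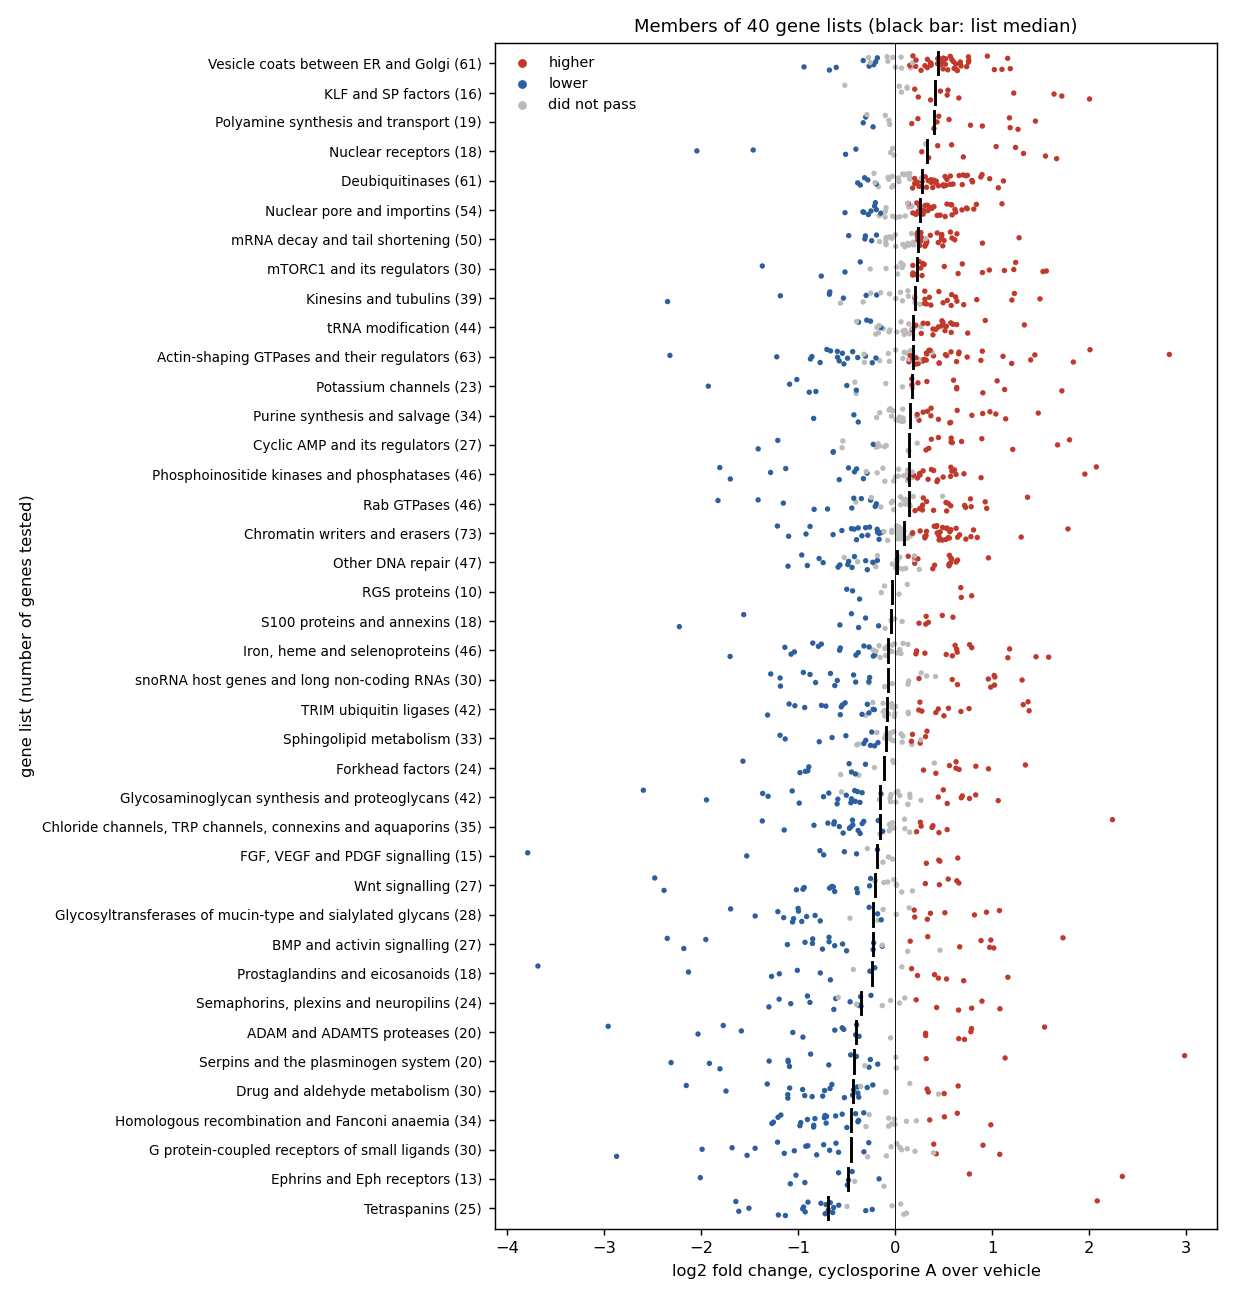
Log2 fold changes (horizontal axis) of the tested members of 40 gene lists, 1 row per list with the number tested in brackets, ordered by the median (black bar); red points are higher, blue lower, grey did not pass. Medians run from -0.69 for the tetraspanin list, which includes *TM4SF* genes, to 0.44 for vesicle coats, and most lists hold points on both sides of 0.

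Rab GTPases mark compartments and steer vesicles. Of 46 tested 19 rose and 11 fell, and in the 24 above 30.2 CPM, 13 rose and 5 fell. *RAB7A* of late endosomes went from 159 ± 17.9 to 273 ± 12.6 CPM and *RAB5A* of early endosomes from 34.4 ± 1.59 to 66.0 ± 4.39 CPM, and *RAB1A*, which acts between endoplasmic reticulum and Golgi, rose by 0.53 ± 0.06. *RAB26*, known from regulated secretion, had 39.8, 38.1, 42.5 and 37.3 CPM with vehicle and 9.46, 14.7, 10.1 and 10.5 CPM with cyclosporine A. Its treated values lay below all controls (-1.83 ± 0.12). Of other members that act in secretion, *RAB3B* changed by -0.83 ± 0.06, *RAB27B* by -1.41 ± 0.24 and *RAB3D* by -0.70 ± 0.11.

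Microtubule motors outside the mitotic set rose in 15 of 25 cases and fell in 2. *KIF12*, a kinesin of kidney epithelium, was the exception in size, with 156, 148, 148 and 134 CPM with vehicle and 27.6, 27.1, 29.9 and 31.2 CPM with cyclosporine A. No library of the groups overlapped (-2.35 ± 0.08). *KIF26B*, a kidney development kinesin that has lost motor activity, went the other way, from 33.0 ± 2.37 to 93.1 ± 12.4 CPM. *KIF5B*, the heavy chain of conventional kinesin, *KIF1B* and *KIF2A* changed by 0.50, 0.58 and 0.71. Of 14 tubulin genes 4 rose and 5 fell, with *TUBA1A* at -1.18 ± 0.10 and *TUBB2A* at 1.23 ± 0.15. Tubulin genes are near copies of each other, so their separate values are uncertain.

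GTPases related to RHOA, RAC1 and CDC42 shape the actin cytoskeleton, and *DOCK9* and *DLC1* above belong to their regulators. Of 63 tested genes 32 rose and 18 fell. *ARHGEF2*, an activator of RHOA held on microtubules, had 116, 107, 112 and 122 CPM with vehicle and 308, 304, 296 and 294 CPM with cyclosporine A. *RND3*, a GTPase that opposes RHOA, had 26.1, 23.9, 23.9 and 28.0 CPM with vehicle and 94.8, 96.5, 78.2 and 94.9 CPM with cyclosporine A. Both rose clear of the controls, by 1.40 ± 0.06 and 1.84 ± 0.08, and the pair have opposing effects on RHOA. *RHOA*, *RAC1* and *CDC42* themselves changed by 0.21, 0.14 and 0.29, and *VAV3*, an exchange factor under receptor kinases, fell from 19.4 ± 1.57 to 3.87 ± 1.26 CPM.

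Traffic through the nuclear pore leaned higher in its carriers. Of 27 importins, exportins and partners 20 rose and 3 fell, and of 27 pore proteins 14 rose and 6 fell. *XPOT*, the exporter of transfer RNA, had 98.6, 96.7, 96.5 and 86.5 CPM with vehicle and 202, 202, 205 and 206 CPM with cyclosporine A. Every treated library was above every control (1.10 ± 0.06). *XPO6*, which exports actin, and *KPNA4*, an importin alpha, went from 179 ± 4.99 to 320.4 ± 12.4 CPM and from 69.1 ± 4.41 to 121 ± 11.5 CPM. *XPO5*, the exporter of microRNA precursors, changed by 0.58 ± 0.07 and *KPNB1*, the main importin beta, by 0.38 ± 0.06. *KPNA2* (-0.19 ± 0.07) and the pore membrane protein *NUP210* (-0.52 ± 0.06) fell.

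Enzymes that modify transfer RNA rose in 21 of 44 cases and fell in 4, and in the 17 above 30.2 CPM, 10 rose and 2 fell. The largest rise was *CTU1*, a subunit of the enzyme that thiolates the wobble uridine, with 12.8, 11.2, 13.97 and 11.7 CPM with vehicle and 27.0, 34.0, 26.9 and 38.6 CPM with cyclosporine A. All treated libraries exceeded all controls (1.33 ± 0.12), and its partner *CTU2* changed by 0.64 ± 0.11. Elongator subunits, which modify the same base, rose in *ELP2* (0.53), *ELP3* (0.48) and *IKBKAP* (0.21), while *ELP4* had -0.16 and did not pass. *YRDC*, a step in making threonylcarbamoyl adenosine, went from 12.7 ± 0.973 to 24.1 ± 1.77 CPM and *NSUN2*, a cytosine methylase, from 126 ± 4.76 to 179.9 ± 11.5 CPM.

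Messenger RNA decay genes rose in 27 of 50 cases and fell in 5. *EXOSC6*, a subunit of the exosome that degrades RNA from its 3′ end, had 34.2, 29.96, 30.5 and 33.0 CPM with vehicle and 71.2, 77.9, 72.5 and 90.3 CPM with cyclosporine A. It rose by 1.28 ± 0.08 without overlap, whereas *EXOSC2* of the same complex fell (-0.31 ± 0.10). *TOB1*, which recruits tail-shortening enzymes, went from 26.4 ± 2.14 to 48.9 ± 6.85 CPM. Of the listed genes that act in nonsense-mediated decay, *UPF2* (0.64), *SMG1* (0.43) and *UPF1* (0.23) rose, and *UPF3A* had 0.17 and did not pass. *ZFP36*, which destabilises AU-rich messages, rose (0.48 ± 0.08), and its relatives *ZFP36L1* (-0.31 ± 0.06) and *ZFP36L2* (-0.48 ± 0.08) fell.

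Host genes of small nucleolar RNAs, many of whose spliced transcripts are removed by nonsense-mediated decay, were split evenly, 6 higher and 6 lower of 17. *GAS5* had 143, 143, 134 and 141 CPM with vehicle and 278, 289.8, 288 and 255 CPM with cyclosporine A. *SNHG3* had 93.3, 96.3, 93.1 and 70.0 CPM with vehicle and 39.9, 39.8, 32.4 and 44.5 CPM with cyclosporine A. *GAS5* rose (0.99 ± 0.06) and *SNHG3* fell (-1.18 ± 0.09), with no overlap in either. *C6orf48* (0.96 ± 0.06) and *SNHG5* (1.03 ± 0.12) were higher. Among other long non-coding RNAs, *NEAT1*, the scaffold of nuclear paraspeckles, had 2080.1, 2192, 2099 and 1753 CPM with vehicle and 923, 947, 859 and 844 CPM with cyclosporine A. It fell in all treated libraries (-1.18 ± 0.06), while its genomic neighbour *MALAT1* of nuclear speckles rose by 0.25 ± 0.06.

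Protein turnover genes that remove ubiquitin rose in 38 of 61 cases and fell in 5, with a median of 0.28. *USP36*, a nucleolar enzyme, had 97.4, 86.9, 94.8 and 89.0 CPM with vehicle and 197, 201, 202 and 200.3 CPM with cyclosporine A. It was higher in all 4 treated libraries (1.12 ± 0.06). *USP47* went from 65.7 ± 3.60 to 129.8 ± 5.30 CPM, *CYLD*, which trims the chains of inflammatory signalling, from 34.5 ± 2.00 to 64.4 ± 4.53 CPM and *UCHL1*, an enzyme known from neurons, from 400.5 ± 35.6 to 632 ± 20.2 CPM. TRIM ubiquitin ligases had 12 higher and 15 lower of 42, and 6 and 8 of the 19 above 30.2 CPM. *TRIM25*, a ligase of the antiviral response, had 125, 115, 127 and 127 CPM with vehicle and 319, 333, 326 and 308 CPM with cyclosporine A. It rose by 1.38 ± 0.06, while *TRIM59* fell from 74.4 ± 6.73 to 35.2 ± 3.39 CPM and *TRIM38* changed by -0.93 ± 0.09.

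The complex mTORC1 drives growth when amino acids bring it to the lysosome by way of Rag GTPases. Of 30 genes of the complex and its regulators 19 rose and 4 fell. *RRAGD* had 18.2, 21.7, 19.7 and 17.8 CPM with vehicle and 51.2, 53.5, 57.8 and 66.5 CPM with cyclosporine A. *RRAGC* had 9.93, 8.27, 12.5 and 10.8 CPM with vehicle and 30.7, 26.6, 30.4 and 30.7 CPM with cyclosporine A. These 2 Rag genes, whose products pair with RagA or RagB, rose by 1.56 ± 0.10 and 1.53 ± 0.12 and did not overlap the controls. *RRAGA* rose by 0.90 ± 0.07 and *RRAGB* fell, at -0.52 ± 0.12. Folliculin and its partners, which set the nucleotide state of RagC and RagD, rose together, with *FLCN* going from 46.4 ± 2.51 to 101 ± 7.59 CPM, *FNIP1* from 40.5 ± 4.84 to 79.9 ± 2.38 CPM and *FNIP2* from 76.3 ± 3.90 to 179 ± 3.51 CPM. *EIF4EBP1*, the translation repressor that mTORC1 inactivates, went from 54.8 ± 6.87 to 129 ± 15.7 CPM. The kinase gene *MTOR* had 0.09 ± 0.07 and did not pass, and *DEPTOR*, an inhibitor of the kinase, fell from 37.9 ± 4.56 to 14.7 ± 2.34 CPM.

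Krüppel-like factors bind GC-rich promoters and govern differentiation of epithelia. Of 16 KLF and SP genes tested 11 rose and 5 did not pass. *KLF7* had 29.6, 29.6, 23.9 and 26.2 CPM with vehicle and 89.9, 91.9, 91.8 and 90.0 CPM with cyclosporine A. *KLF10* had 30.5, 35.7, 38.3 and 37.0 CPM with vehicle and 121, 106, 92.0 and 117 CPM with cyclosporine A. *KLF4* had 1.70, 1.47, 2.12 and 1.35 CPM with vehicle and 4.73, 9.04, 6.67 and 6.91 CPM with cyclosporine A. In all 3 genes the treated libraries were above every control, by 1.72 ± 0.08, 1.64 ± 0.08 and 2.01 ± 0.26, although *KLF4* rests on few reads. *KLF11* changed by 1.22 ± 0.08, *KLF9* by 0.54 ± 0.09, *KLF6* by 0.24 ± 0.06 and *SP1* by 0.20 ± 0.06. When genes with few reads were kept in the fit, 1 member of this list was called lower.

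**Figure D5:**
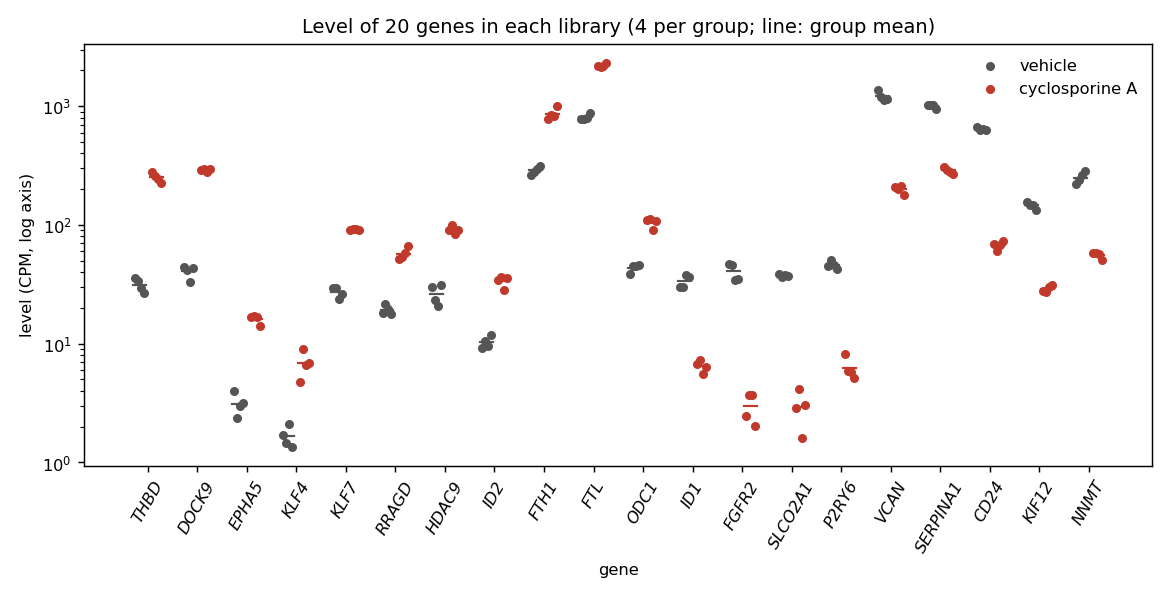
Level in CPM (vertical log axis) of 20 genes in each vehicle (grey) and cyclosporine A (red) library, with the group mean as a line. For every gene drawn, all 4 treated libraries lie on the same side of all 4 controls. The genes were chosen among those with clear changes, so this separation follows from the choice and is not a result.

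Forkhead factors had 9 higher and 9 lower of 24, and in the 11 above 30.2 CPM, 7 rose and 3 fell. *FOXO3*, which the growth factor kinase AKT keeps out of the nucleus, had 35.6, 35.5, 33.4 and 44.5 CPM with vehicle and 92.8, 92.9, 92.0 and 98.7 CPM with cyclosporine A. It rose in every treated library (1.34 ± 0.08). *FOXK1*, a repressor of autophagy genes, went from 135 ± 7.48 to 264 ± 20.7 CPM. *FOXM1*, which drives cell division genes, had 55.9, 66.7, 57.6 and 65.7 CPM with vehicle and 35.2, 29.3, 32.2 and 35.3 CPM with cyclosporine A. *FOXM1* fell without overlap (-0.89 ± 0.09), and *FOXE1* (-0.45 ± 0.06) and *FOXC1* (-0.41 ± 0.10) were lower as well.

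Nuclear receptors, transcription factors bound by hormones and lipids, rose in 10 of 18 listed cases and fell in 4. The list does not hold *NR1D1*, the clock repressor REV-ERB alpha, which rose (3.10 ± 0.12), or the receptors of retinoids and of fatty acids. *THRA*, a thyroid hormone receptor, had 11.3, 11.8, 12.5 and 11.1 CPM with vehicle and 44.6, 36.7, 33.1 and 32.7 CPM with cyclosporine A. *NR1D2*, the heme-binding clock repressor REV-ERB beta, had 26.4, 26.7, 26.2 and 30.3 CPM with vehicle and 91.3, 78.4, 68.8 and 80.6 CPM with cyclosporine A. *NR2F2*, the orphan receptor COUP-TFII, had 79.4, 77.8, 74.1 and 80.1 CPM with vehicle and 27.4, 31.5, 27.4 and 26.9 CPM with cyclosporine A. Treated libraries were all higher for the first pair (1.67 ± 0.12 and 1.55 ± 0.09) and all lower for the last (-1.46 ± 0.08), and its relative *NR2F1* went from 12.9 ± 1.64 to 3.09 ± 0.892 CPM. The mineralocorticoid receptor *NR3C2* rose from 18.6 ± 2.52 to 43.6 ± 4.01 CPM and the vitamin D receptor *VDR* from 7.03 ± 1.03 to 10.4 ± 2.10 CPM, while the glucocorticoid receptor *NR3C1* had -0.02 ± 0.08 and did not pass.

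Enzymes that write and erase chromatin marks leaned higher among the histone demethylases, of which 12 of 19 rose and 2 fell. *JHDM1D* went from 17.3 ± 1.10 to 42.8 ± 3.10 CPM and *KDM6A*, which removes the repressive methyl mark of histone H3 lysine 27, changed by 0.85 ± 0.08. *EZH2*, which adds that mark, had 98.3, 101, 103 and 97.3 CPM with vehicle and 46.5, 50.8, 45.8 and 43.2 CPM with cyclosporine A. All 4 treated libraries were below all controls (-1.10 ± 0.07). Of 29 methyltransferases 11 rose and 8 fell. *HDAC9*, a deacetylase that represses MEF2 targets, had 30.1, 23.3, 20.9 and 31.4 CPM with vehicle and 91.3, 99.9, 84.0 and 91.1 CPM with cyclosporine A. It rose by 1.78 ± 0.09, and its class members *HDAC4* (0.81 ± 0.11) and *HDAC5* (0.58 ± 0.08) rose too, whereas *HDAC1* fell (-0.55 ± 0.06). The maintenance pair *UHRF1* and *DNMT1* of DNA methylation changed by -0.88 ± 0.10 and -0.26 ± 0.06.

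Repair of crosslinked DNA by homologous recombination and the Fanconi anaemia proteins had a low median, -0.45, with 21 of 34 genes lower and 4 higher. *FANCD2*, which is ubiquitinated at the lesion, had 52.2, 57.7, 58.0 and 52.4 CPM with vehicle and 25.9, 23.9, 22.1 and 23.0 CPM with cyclosporine A. *FANCL*, the ligase that does so, had 62.4, 62.7, 58.2 and 57.3 CPM with vehicle and 25.7, 29.3, 27.6 and 24.0 CPM with cyclosporine A. Both fell clear of the controls, with log2 fold changes of -1.21 ± 0.09 and -1.18 ± 0.09. In the 12 genes above 30.2 CPM, 9 fell and 2 rose, among them *FANCA* (-0.83 ± 0.07) and *RAD50* (0.64 ± 0.07). Other repair pathways were balanced, 15 higher and 15 lower of 47. *PARP1* fell from 253 ± 16.5 to 151 ± 10.1 CPM and *DDB2* changed by -0.78 ± 0.10. *RAD23B*, listed under nucleotide excision repair and also a carrier of ubiquitinated proteins, rose from 136 ± 8.10 to 265 ± 16.5 CPM.

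Metabolic families followed no common direction. Enzymes of drug and aldehyde metabolism fell in 21 of 30 cases and rose in 4, and in the 13 above 30.2 CPM 9 fell and 3 rose. *NNMT*, which methylates nicotinamide, had 219, 239, 262 and 283 CPM with vehicle and 57.8, 58.2, 57.3 and 51.2 CPM with cyclosporine A. The treated libraries lay between 51.2 and 58.2 CPM, apart from the controls (-2.15 ± 0.07). *CYP1B1*, which oxidises steroids and aromatic pollutants, went from 136 ± 8.76 to 63.4 ± 3.53 CPM, *ALDH4A1*, a step of proline breakdown, from 24.3 ± 1.58 to 7.18 ± 0.301 CPM and the epoxide hydrolase *EPHX1* changed by -0.65 ± 0.06. *POR*, the electron donor that cytochrome P450 enzymes share, rose by 0.51 ± 0.06. *UGT2B7*, a kidney glucuronidation enzyme, fell (-1.09 ± 0.16).

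Of 18 prostaglandin and eicosanoid genes 7 rose and 9 fell, and in the 8 above 30.2 CPM, 5 rose and 2 fell. *PTGS1*, a cyclooxygenase that starts synthesis, had 39.7, 35.3, 31.7 and 30.7 CPM with vehicle and 80.0, 80.9, 82.6 and 67.8 CPM with cyclosporine A. It was higher in each treated library (1.16 ± 0.08). *PTGES* (-1.27 ± 0.13) and *PTGIS* (-1.19 ± 0.16), which finish prostaglandin E2 and prostacyclin, fell. The uptake carrier *SLCO2A1* fell as given above, and *HPGD*, the enzyme that inactivates prostaglandins, went from 5.58 ± 1.16 to 1.24 ± 0.539 CPM. Sphingolipid genes changed little, 11 lower and 5 higher of 33, led by *DEGS1*, the last step to ceramide, from 218 ± 13.8 to 127 ± 5.70 CPM, and the sphingosine phosphate phosphatase *SGPP2* (-1.19 ± 0.13).

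Phosphoinositide enzymes rose in 21 of 46 cases and fell in 10, and in the 29 above 30.2 CPM, 15 rose and 6 fell. *INPP4B*, a phosphatase that limits AKT signalling, had 10.2, 11.9, 11.4 and 11.7 CPM with vehicle and 44.2, 43.7, 44.2 and 42.7 CPM with cyclosporine A. *PLCB4*, a phospholipase under G protein-coupled receptors, had 1141, 1087, 1017 and 1017 CPM with vehicle and 447, 519, 523 and 463 CPM with cyclosporine A. Their log2 fold changes were 1.96 ± 0.11 and -1.13 ± 0.06, each without overlap. *PLCE1* fell from 25.04 ± 2.12 to 7.16 ± 1.11 CPM, and *PLCG2*, with few reads, rose from 3.04 ± 0.507 to 12.9 ± 1.99 CPM. Among kinase genes *PI4K2A* changed by 0.89 ± 0.08 and the regulatory subunits *PIK3R1* and *PIK3R3* by -0.57 ± 0.10 and -1.70 ± 0.20.

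Polyamines are small cations made from ornithine that bind RNA, and ornithine decarboxylase sets their rate of synthesis. Of 19 genes of their synthesis and transport 12 rose and 3 fell, with a median of 0.40. *ARG2*, the arginase that yields ornithine, had 56.3, 52.4, 57.8 and 60.7 CPM with vehicle and 162, 149, 151 and 155 CPM with cyclosporine A. *ODC1*, the decarboxylase, had 38.9, 45.04, 45.1 and 46.3 CPM with vehicle and 109, 112, 90.2 and 107 CPM with cyclosporine A. *SRM*, spermidine synthase, had 31.3, 34.2, 35.3 and 32.7 CPM with vehicle and 73.7, 74.0, 70.0 and 86.2 CPM with cyclosporine A. In each of these successive steps all treated libraries were above all controls, by 1.45 ± 0.07, 1.27 ± 0.08 and 1.19 ± 0.08. *SAT1*, which acetylates polyamines for breakdown or export, rose as well, from 305 ± 12.8 to 569 ± 13.4 CPM, while *SMS*, spermine synthase, fell (-0.23 ± 0.08).

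Short stretches before the starts of *ARG2*, *ODC1* and *NR1D2*, which rose, are shown because they hold exact copies of motifs bound by known regulators. The windows are from RefSeq, run from 250 bases before to 50 bases after the start of a transcript, and use build GRCh38.p14, which is not the build of the counts. Searched on both strands were the cyclic AMP response element (TGACGTCA), the E-box (CACGTG), the AP-1 site (TGANTCA), the joint element of C/EBP and ATF factors (TGATGCAAT), the CCAAT box, the TATA box (TATAAA), the ETS site (CCGGAAG), the E2F site (TTTNGCGC) and the GC box (GGGGCGGG). The cyclic AMP response element TGACGTCA is in 1.85% of all 35116 windows, and *ARG2* has it in 2 places. The E-box CACGTG, bound by MYC and by clock factors, is in 7.26% of windows, with a copy before a start of *ODC1* (another lies 5 bases past it and is not printed) and 2 before a start of *NR1D2*. RefSeq lists 2 starts with a window for each of these 2 genes, and the copies lie in the window of the downstream start, with none in that of the upstream one. Which start the cells used was not measured. Each stretch of 30 bases is written 5′ to 3′ with the motif in capitals, on the strand of the gene, and none of the motifs shown overlaps another one searched for. Of the genes with symbols 78.1% had a window, under the 80% set for a comparison of gene sets, so that comparison was void and no share is given for risen or fallen genes.
ARG2, first base of the motif at -172, chr14:67619737-67619766, + strand: ccagagtggggTGACGTCAtcgaaggcacg
ARG2, first base at -64, chr14:67619845-67619874, + strand: caatgtggcggTGACGTCAcggggcgggcg
ODC1, first base at -29, chr2:10448024-10448053, - strand: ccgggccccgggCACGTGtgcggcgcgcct
NR1D2, first base at -155, chr3:23945954-23945983, + strand: ggcgggcggggaCACGTGaggccgctcggc
NR1D2, first base at -105, chr3:23946004-23946033, + strand: gggccgcagggaCACGTGggggcgggggcg
A match to these letters is a description of the sequence and says nothing of which factor is bound.

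Iron is stored in ferritin, taken up by the transferrin receptor and exported by ferroportin. *FTH1*, the ferritin heavy chain, had 264, 280.0, 295 and 314 CPM with vehicle and 785, 843, 819.9 and 1004 CPM with cyclosporine A. *FTL*, the light chain, had 775, 775, 799.7 and 869 CPM with vehicle and 2176, 2136, 2199.7 and 2304 CPM with cyclosporine A. Both chains rose without overlap, by 1.58 ± 0.06 and 1.45 ± 0.06, although reads of *FTH1* and *FTL* can be shared with processed pseudogenes. *TFRC*, the transferrin receptor, rose as well, from 218 ± 8.90 to 488 ± 41.3 CPM, and *SLC40A1*, ferroportin, had few reads and fell from 4.07 ± 0.559 to 1.23 ± 0.946 CPM. The iron-sensing RNA-binding protein gene *ACO1* changed by 0.53 ± 0.07 and its relative *IREB2* by -0.21 ± 0.09. In heme metabolism *BLVRB* (1.18 ± 0.10) and *ALAS1*, the first step of synthesis (0.64 ± 0.08), rose and *ALAD*, the second step, fell (-1.04 ± 0.12). Of 14 selenoprotein genes and partners 6 fell and 2 rose, with *SELS* (0.77 ± 0.10) and *SELK* (0.62 ± 0.15) higher and *SEPN1* (-0.76 ± 0.06) lower.

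Purine genes rose in 16 of 34 cases and fell in 3. In the 27 above 30.2 CPM, 13 rose and 1 fell, a share of rises near that of all genes at this level (2824 of 6455). *AMPD2*, which deaminates AMP, had 387, 339.5, 363 and 336 CPM with vehicle and 777, 725, 684 and 748 CPM with cyclosporine A. *ADSS*, which leads from IMP back toward AMP, had 58.6, 57.7, 62.4 and 65.7 CPM with vehicle and 130.2, 138, 131 and 138 CPM with cyclosporine A. Both rose in all treated libraries (1.04 ± 0.06 and 1.14 ± 0.07), and *NT5E*, the surface enzyme CD73 that yields adenosine, went from 57.1 ± 5.09 to 113 ± 6.05 CPM. In the pathway of new synthesis the first enzyme gene *PPAT* (0.56 ± 0.09) and *GART* (0.57 ± 0.07) rose, *PFAS* fell (-0.38 ± 0.08), and *PAICS*, *ADSL* and *ATIC* had 0.07, 0.09 and 0.04 and did not pass. Calcium-binding S100 and annexin genes were balanced, 6 higher and 7 lower of 18, with *ANXA5* (0.60 ± 0.06) higher and *S100A10* (-0.57 ± 0.08) lower.

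Among kidney identity genes, *CDH6*, a cadherin of the early proximal tubule, had 463, 433, 440.1 and 394 CPM with vehicle and 58.2, 57.7, 52.0 and 51.4 CPM with cyclosporine A. The treated libraries were far below the controls (-2.98 ± 0.07), whereas *PAX8* changed by 0.20 ± 0.06. Among markers of stromal cells, *LUM* fell from 264 ± 19.2 to 63.2 ± 3.46 CPM, *COL1A1* from 15.6 ± 3.02 to 5.36 ± 0.838 CPM and *DCN* from 96.0 ± 6.68 to 48.7 ± 5.67 CPM. The sum of the fibroblast and muscle list given above fell with them and *COL1A2* had no read in any library. Whether cells of that kind have a part in the falls of *VCAN* and other matrix genes was not tested.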

How the data were processed

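The authors deposited 1 table of raw counts by gene symbol for 4 vehicle and 4 cyclosporine A mRNA libraries of HK-2 cells, all whole numbers. The submitters' processing notes name HTSeq, TopHat, Bowtie, cutadapt, CASAVA 1.8.2 and DESeq2 and the build hg19. What each tool did, and whether strand was used in counting, is not given in the sources used here. Reads of a gene and of one that overlaps it on either strand may therefore be mixed. Of 23368 features, 12910 had a mean of 10 or more counts. Features that carry a date in place of a symbol (28, of which 18 were tested) were kept in the fit but are not named.

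Counts were fitted with edgeR 4.0.16 in R 4.3.3 (TMM, quasi-likelihood test, group as the only term, Benjamini-Hochberg adjustment over all genes tested); the 2-fold test was edgeR's glmTreat with a log2 threshold of 1. SE is the size of the log2 fold change over the square root of F. Steps were tested on simulated data. Total counts per library (3965431 to 7041604) limit precision at low levels. Groups came from sample titles. Members and lists were chosen with earlier results of these data known. The naming rule took called genes that had 50 counts or more on average and no overlap and kept the 30 with the largest rise and the 30 with the largest fall. It added up to 3 members of each list by p, the 10 largest rises and falls in CPM and genes without reads in 1 group; other list members are examples picked with their values in view. Alternatives were other normalizations, filters, DESeq2 1.42.0, limma voom 3.58.1, a replicate block, thinned libraries and leaving out each library. Other files of the series were not used here, and a few genes are not reported here.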

Additional observations from a re-analysis of the deposited data

Results flagged for a closer look

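In 24 of 383 groups of 4 libraries tested for the 192 genes named by rule, 1 library lay far from the other 3. Chance alone flags about 1 in 20 groups. Vehicle replicate 4 was that library in 8 cases. It was the lowest of its group for *SLC34A2* (65.7 CPM, against 76.5 to 78.3), *LRG1* (37.9, against 44.9 to 45.2), *PDGFB* (147, against 174 to 179), *ADORA1* (30.9, against 36.6 to 37.0), *RGS12* (40.6, against 49.3 to 49.6) and *CLU* (1014 CPM, against 1173 to 1197). The same library was the highest for *NR1D2* (30.3, against 26.2 to 26.7) and *SEC24D* (78.6 CPM, against 67.6 to 68.9). Vehicle replicate 1 was the highest for *PDGFC* (185 CPM, against 165 to 168), *KCNH1* (31.5, against 25.4 to 26.2) and *PLCE1* (28.2, against 23.9 to 24.1) and the lowest for *ODC1* (38.9, against 45.04 to 46.3). Vehicle replicate 3 had the lowest value of *PANX2* (1.27 CPM, against 2.69 to 2.94).

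Among the cyclosporine A libraries, replicate 4 was the lowest for *PAPPA2* (61.6 CPM, against 75.5 to 76.9), *EPHA5* (14.1, against 16.8 to 17.1), *NNMT* (51.2, against 57.3 to 58.2) and *C3* (1719, against 1811 to 1828), and the highest for *FOXO3* (98.7 CPM, against 92.0 to 92.9). Replicate 3 had the lowest value of *PLD6* (21.9 CPM, against 37.6 to 40.3), *HSPA1B* (88.1, against 165 to 180.0) and *SLC2A2* (4.602, against 7.61 to 8.06). Replicate 1 was the highest for *SAA2* (1.85 CPM, against 0.690 to 0.767) and the lowest for *KCNJ16* (30.04, against 36.4 to 36.8). Replicate 2 had the highest value of *NR2F2* (31.5 CPM, against 26.9 to 27.4). None of these genes changed its call when a single library was left out.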

How the results depend on the processing

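The direction of every gene called in both fits was the same under the 17 alternatives run. The 192 genes named by rule kept their calls in all 3261 fits that tested one of them again. Further genes given as examples were not followed one by one in these fits. DESeq2 called 3925 genes higher and 3876 lower, and its test against 2-fold passed 198 higher and 274 lower genes, where edgeR passed 290 and 436; the cause was not tested. With limma voom 232 and 353 genes passed 2-fold. Upper quartile scaling moved the median over all genes from -0.0038 to -0.08 and gave 3658 higher and 4956 lower calls, and scaling to total counts gave 3867 and 4726. The labels state no pairing of replicate numbers. Deviations of same-numbered libraries correlated at -0.081, 0.0092, -0.056 and 0.035, and those of differently numbered libraries at -0.078 to 0.141. Such weak correlations show no sign of pairing but cannot exclude it. With a replicate block 4248 genes were higher and 4238 lower, 284 and 434 of them past 2-fold. Leaving out each library in turn gave 4054 to 4274 higher and 4041 to 4260 lower genes, and 266 to 289 and 413 to 459 past 2-fold. Thinning every library to 3965431 reads left 12591 genes tested, 4048 higher and 4034 lower. Of the list counts recomputed, 1411 stayed within 1.5 times of the value in the report and 17 moved further, all of them counts of 5 or fewer in the report, among them risen sphingolipid genes (2 with upper quartile or total count scaling) and fallen purine genes (5 with either). Of the list medians recomputed, 33 moved by more than the median SE of the members and 681 did not. Medians near 0 changed sign under some settings for the lists of other DNA repair genes, RGS proteins, S100 proteins and annexins (0.02 from -0.04 without vehicle replicate 4) and kidney epithelium (0.10, 0.03 and 0.04 from -0.06 without vehicle replicate 3 and cyclosporine A replicates 1 and 2). With no filter on low counts, medians of the cyclic AMP, nuclear receptor and potassium channel lists turned to -0.05, -0.02 and -0.09 from 0.14, 0.33 and 0.17.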

Other observations

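Genes were also grouped by the letters their symbols begin with, which gave 73 roots with at least 15 tested members; roots are naming conventions and were not chosen for function. Among them the ribosomal protein roots had the highest medians. Of 42 *RPS* symbols 29 rose and 2 fell (median log2 fold change 0.52), and of 55 *RPL* symbols 44 rose and 2 fell (0.48). The *RPS* root also takes in *RPS6K* symbols, which encode kinases and not ribosomal proteins. Reads of ribosomal protein genes can be shared with processed pseudogenes, some of which carry the same root. *SEC* (18 higher and 6 lower of 27), *KLHL* (14 and 3 of 22), adaptors of ubiquitin ligases, *TBC* (15 and 2 of 26), regulators of Rab GTPases, and *EIF* (40 and 3 of 55), initiation factors, came next.

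At the other end were the collagens (*COL*, 17 of 23 lower and 2 higher, median -0.78), the cytochromes P450 (*CYP*, 12 of 15 lower and 1 higher, median -0.75) and the tetraspanins (*TSPAN*, 13 of 16 lower, median -0.68). *GPR* symbols, orphan G protein-coupled receptors, had 17 lower and 6 higher of 38, interleukin and receptor symbols (*IL*) 16 lower and 9 higher of 33, and *ZDHHC* symbols, enzymes that attach palmitate to proteins, 11 lower and 5 higher of 20. Over all genes 33.4% fell and 33.3% rose, and in the class with the fewest reads 1190 of 3228 fell and 495 rose. Roots were not counted by level, so a lean of a root cannot be told apart from that of genes at its level.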
